A study of Homo sapiens with 10 samples.

Results

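Cereblon is the protein that lenalidomide and related drugs bind in myeloma cells, and the genes described here are those of its ubiquitin ligase and of the proteins the drug-bound ligase destroys. They were chosen by name: 5 genes for the ligase (CRBN, DDB1, CUL4A, CUL4B and RBX1) and 4 for drug targets (IKZF1, IKZF3, ZFP91 and CSNK1A1), which makes 9 of 60573 genes in the deposited count table. All 9 were among the 17833 genes with enough counts to be tested. Poly(A) RNA was sequenced from U266, a long-established myeloma cell line that the labels class as plasma cells, with no drug treatment given in the labels. All cells carried dCas9-VPR, a cleavage-dead Cas9 joined to activator domains that switch on the gene a guide points to, delivered by lentivirus and kept under blasticidin and puromycin. The tested cells had a guide RNA (gRNA2) to the start of EFNB2, the gene of the membrane ligand ephrin-B2, in 5 libraries (A to E). The others had a scrambled, non-targeting guide (cgRNA), also in 5 libraries (A to E). The labels do not say whether separate transductions or cultures lie behind the 5 libraries of a guide, so a difference between guides and a difference between transduced populations cannot be told apart, and p-values measure the spread between these libraries, which may be technical.

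The ligase is built on the scaffold protein cullin 4. The cullin holds RBX1, the RING protein that recruits the ubiquitin-charged E2 enzyme, at one end, and the adaptor DDB1, to which exchangeable substrate receptors such as cereblon dock, at the other. A thalidomide-type drug fills a pocket of cereblon and reshapes its surface, so that proteins which cereblon otherwise leaves alone are bound, ubiquitinated and degraded. In myeloma the loss of the zinc finger transcription factors Ikaros (IKZF1) and Aiolos (IKZF3) is what lenalidomide is best known for, and loss of CRBN is a known route to drug resistance.

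The libraries held 47267929 to 56513336 counts, and every one of the 9 genes had at least 1933 counts in every library. EFNB2 itself had 1.21 ± 0.198 CPM (counts scaled to a common library size by TMM) in EFNB2 guide cells, against 0.119 ± 0.0509 CPM in control cells (n = 5 each, SD), with 304 counts in the EFNB2 guide libraries together, against 32 in the controls. The summed CPM of 9 plasma cell markers ranged from 5515 to 5797 with the EFNB2 guide and from 5800 to 6599 with the control guide. Most of the sum came from SDC1 (mean 2121 CPM with the EFNB2 guide, 3015 with the control guide) and JCHAIN (2042 and 1900). By the test described below 4 of these markers rose and 3 fell, where 45.4% of all tested genes passed in either direction. Their log2 fold changes ran from -0.66 (MZB1) to 2.17 (CD38). In any library the 6 B cell markers summed to at most 7.86 CPM, the 5 T cell markers to at most 5.67 CPM and the 5 myeloid markers to at most 3.40 CPM. Most of the B and T cell sums came from CD79B and CD3E, with 2922 and 1584 counts in all 10 libraries together. MS4A1 and CD3D, from the same lists, had 6 and 3 counts. What part the plasma cell markers have in the results below was not tested, and in bulk RNA fewer cells of a type and less RNA per cell cannot be told apart. The A library of each guide stood apart from the rest of its group. On the second principal component, with 8.33% of the variance, EFNB2 guide library A lay at 21.2 and the other 4 of its guide at -8.04 to -0.798, and control library A lay at -25.9 and the other 4 at -6.24 to 12.6. Results on the 9 genes are therefore given with all 10 libraries and also without both A libraries.

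The 9 genes changed little with the EFNB2 guide. CRBN, DDB1, IKZF1 and CSNK1A1 fell and ZFP91 rose, each by less than 10%, while CUL4A, CUL4B, RBX1 and IKZF3 did not pass the test at an adjusted p of 0.05 (edgeR quasi-likelihood test, Benjamini-Hochberg adjustment over all 17833 genes). Thus 5 of 9 genes passed, against 45.4% of all tested genes, with 4 lower (22.6% of all tested genes) and 1 higher (22.8%). All 9 had a mean log2 CPM above 5, and of the 6161 genes above that level 59.3% passed, with a median absolute log2 fold change of 0.10. The median absolute log2 fold change of the 9 genes was 0.079, the largest was 0.14, and their median log2 fold change was -0.047, beside 0.0073 for all tested genes. The share that passed was thus near the background, and the sizes were those of other well-expressed genes.

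**Figure D1:**
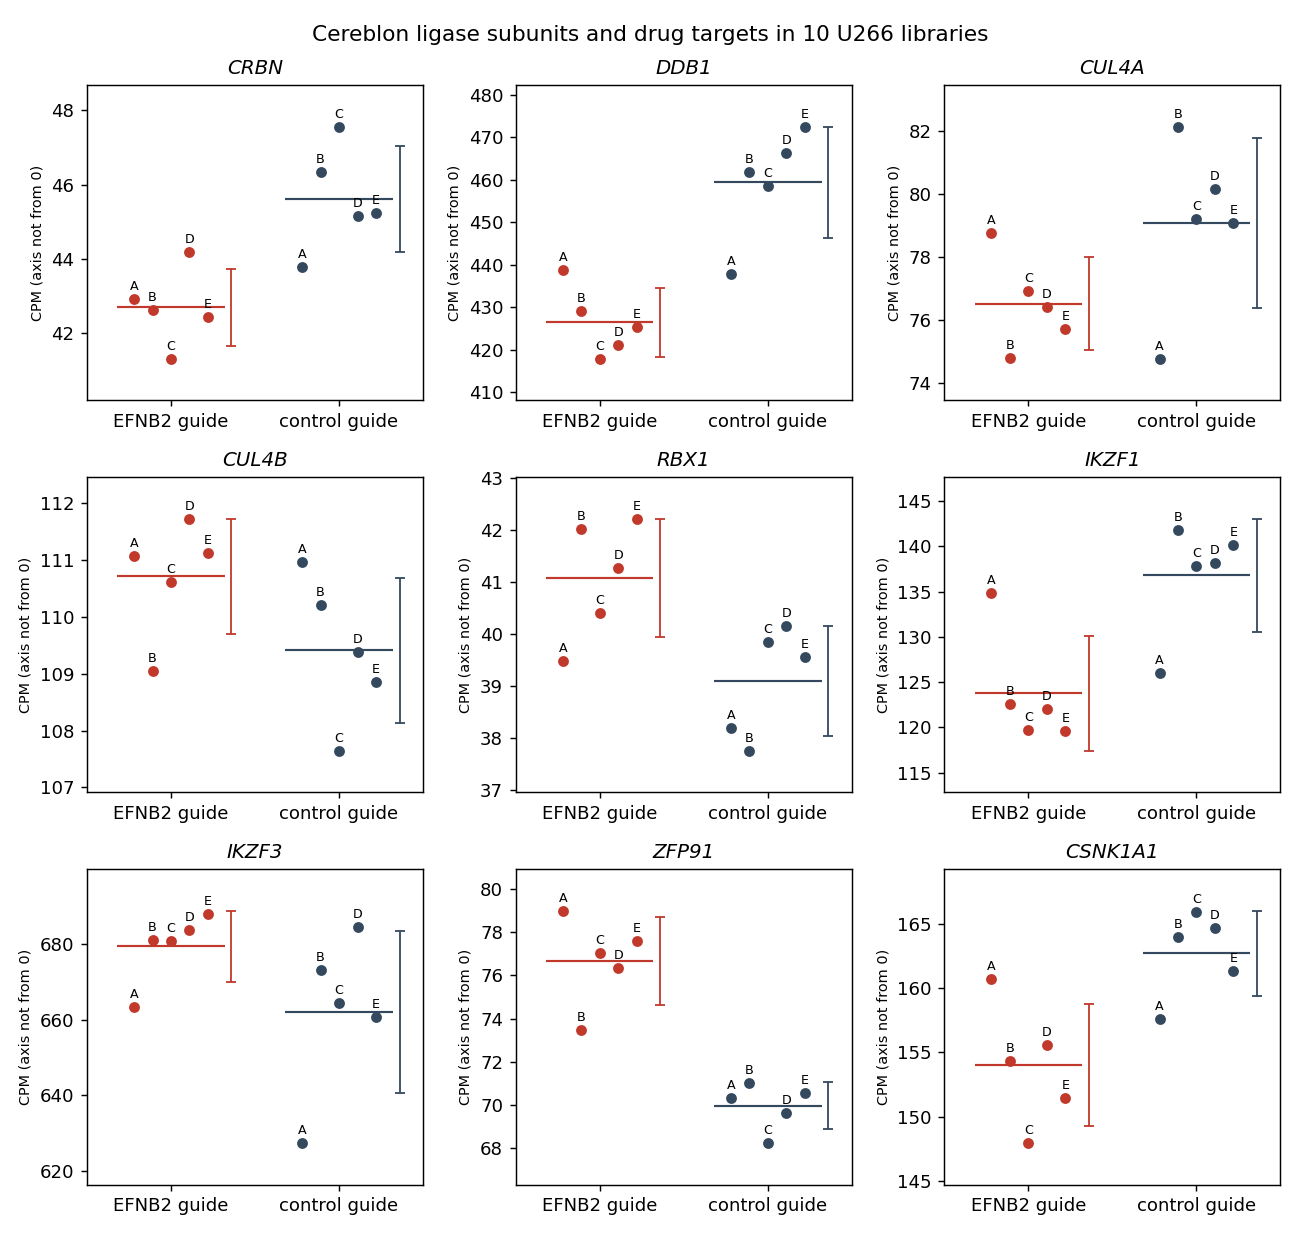
Each panel gives 1 gene, with CPM on the vertical axis (not drawn from 0) and the libraries A to E of the EFNB2 guide on the left and of the control guide on the right; horizontal lines are means and error bars are 1 SD (n = 5). ZFP91 is the 1 gene whose groups do not overlap, and in IKZF1, DDB1 and CUL4A the A library of each guide lies toward the other guide.

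Cereblon, the receptor that binds the drug, is encoded by CRBN (ENSG00000113851.14, chr3:3144628-3179727, minus strand, GRCh38). It stood at 42.9, 42.6, 41.3, 44.2 and 42.4 CPM in EFNB2 guide libraries A to E, and at 43.8, 46.3, 47.6, 45.1 and 45.2 CPM in control libraries A to E. The groups overlapped through control library A, which lay below EFNB2 guide library D. CRBN fell by 6.40% (log2 fold change -0.095, SE 0.030, adjusted p = 0.0171 by edgeR), and 2 SE on either side spanned changes of -10.2% to -2.42%. The call was lost without EFNB2 guide library C (adjusted p = 0.0604) or control library C (0.0588), and without both A libraries CRBN fell by 7.48% (adjusted p = 0.00255). CRBN was the lowest of the 9 genes per kilobase of merged exons, at 5.29 ± 0.128 CPM per kilobase with the EFNB2 guide and 5.65 ± 0.177 with the control guide (SD, n = 5 each). This rank depends on the merged exon length, which counts every annotated variant. By CPM alone RBX1 was lower, at a mean of 41.1 with the EFNB2 guide and 39.1 with the control guide.

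DDB1, the adaptor between receptor and cullin (ENSG00000167986.13, chr11:61299451-61342596, minus strand), was the most abundant ligase gene. Its libraries A to E held 438.9, 429.1, 417.9, 421.1 and 425.3 CPM with the EFNB2 guide and 437.9, 461.8, 458.5, 466.3 and 472.5 CPM with the control guide. Only the 2 A libraries overlapped, EFNB2 guide A lying just above control A. DDB1 fell by 7.17% (log2 fold change -0.11, SE 0.025, adjusted p = 0.00254 by edgeR), and it passed in each of the 20 alternative analyses. Without both A libraries DDB1 fell by 8.94% (adjusted p = 1.60e-06).

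The cullin scaffold has a pair of genes, and neither passed the test. CUL4A (ENSG00000139842.14, chr13:113208193-113267108, plus strand) had 78.8, 74.8, 76.9, 76.4 and 75.7 CPM in EFNB2 guide libraries A to E and 74.8, 82.2, 79.2, 80.2 and 79.1 CPM in control libraries A to E. Control library A was the lowest of all 10, whereas the other 4 controls lay above every EFNB2 guide library. The log2 fold change was -0.047 (SE 0.028, adjusted p = 0.186 by edgeR), with 2 SE on either side spanning -6.91% to 0.601%. Without control library A, CUL4A passed as lower (log2 fold change -0.071, adjusted p = 0.0263), as it did without both A libraries (-0.078, adjusted p = 0.00625). CUL4A lies on the same chromosome as EFNB2, 6.67 Mb away.

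CUL4B, the X-linked paralog (ENSG00000158290.16, chrX:120524609-120575794, minus strand), was the steadiest of the genes. It ranged from 109 to 112 CPM with the EFNB2 guide and from 108 to 111 CPM with the control guide, and the groups overlapped broadly. The log2 fold change was 0.017 (SE 0.021, adjusted p = 0.546 by edgeR), and 2 SE on either side spanned -1.74% to 4.21%. It was 0.021 without both A libraries (adjusted p = 0.413). No stretch of 100 bases is shared between transcripts of CUL4A or CUL4B and any other gene in GENCODE 29, so reads of the paralogs can be told apart over that length.

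RBX1, the RING subunit (ENSG00000100387.8, chr22:40951347-40973309, plus strand), had 39.5, 42.0, 40.4, 41.3 and 42.2 CPM in EFNB2 guide libraries A to E and 38.2, 37.8, 39.8, 40.2 and 39.6 CPM in control libraries A to E. In 4 of 5 EFNB2 guide libraries it exceeded every control library. RBX1 did not pass (log2 fold change 0.071, SE 0.030, adjusted p = 0.0697 by edgeR), with 2 SE on either side spanning 0.705% to 9.55%. It passed as higher without EFNB2 guide library A (log2 fold change 0.088, adjusted p = 0.0246) and without both A libraries (0.076, adjusted p = 0.0335).

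**Figure D2:**
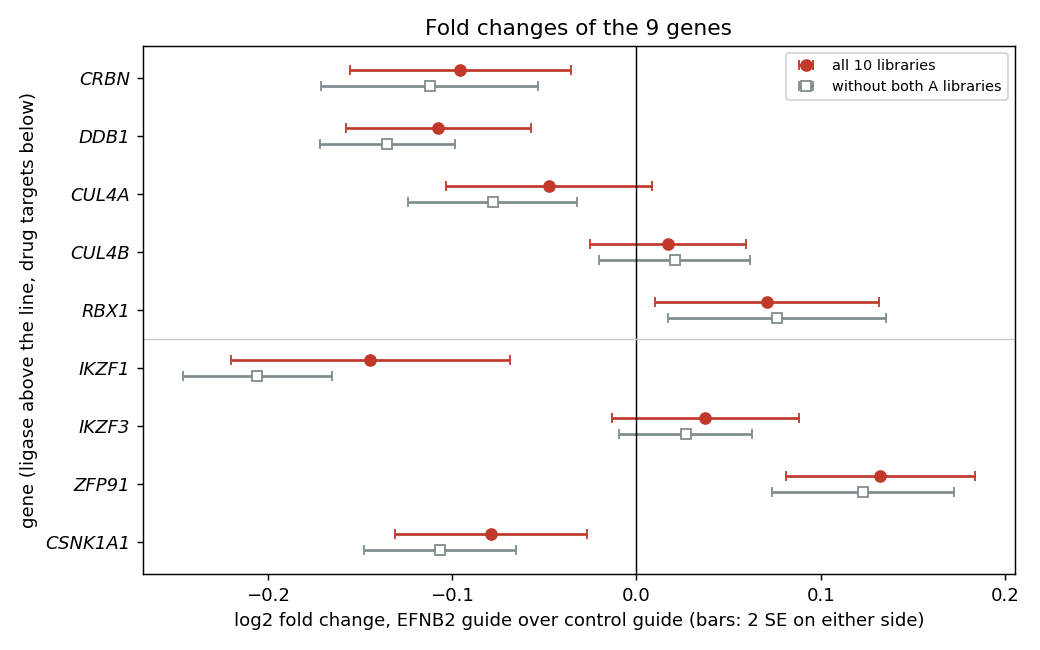
The horizontal axis gives the log2 fold change of the EFNB2 guide over the control guide for the 5 ligase genes and the 4 drug target genes; filled circles use all 10 libraries, open squares leave out both A libraries, and bars span 2 SE on either side. Without the A libraries IKZF1 lies at -0.21 (all libraries -0.14) and CUL4A at -0.078 (all libraries -0.047), and no gene turns direction between these 2 fits.

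Among the drug targets, Ikaros, Aiolos and ZFP91 are C2H2 zinc finger proteins, and the drug-bound cereblon holds a finger of each in which a glycine directly follows the second zinc-binding cysteine. A search of the coding sequences for a finger with that glycine found 4 matches in IKZF1, 3 in IKZF3 and 2 in ZFP91, and the one known from work on these drugs is given here. Its coding bases, read from GENCODE 29 transcripts from the first zinc-binding cysteine codon to the last zinc-binding histidine codon, are shown because they are what the targets share. Capitals mark the codons from the first cysteine to the glycine.
IKZF1: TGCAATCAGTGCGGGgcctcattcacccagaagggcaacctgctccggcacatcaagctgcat
IKZF3: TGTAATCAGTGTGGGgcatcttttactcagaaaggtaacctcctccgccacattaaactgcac
ZFP91: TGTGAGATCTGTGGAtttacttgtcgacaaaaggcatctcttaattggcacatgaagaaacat
The IKZF1 stretch lies at chr7:50382557-50382619 (plus strand, residues 147 to 167), the IKZF3 stretch at chr17:39791504-39791566 (minus strand, residues 148 to 168) and the ZFP91 stretch at chr11:58617197-58617259 (plus strand, residues 402 to 422), all in GRCh38. Between IKZF1 and IKZF3, 50 of 63 bases and all 21 of 21 encoded residues are the same. ZFP91 shares 30 of 63 bases and 9 of 21 residues with either of them. With the other glycine fingers of IKZF1 and IKZF3, this ZFP91 finger shares 4 to 8 of 21 residues, so 9 is little above those. CSNK1A1, a kinase, is instead held through a loop with a glycine at the matching place.

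IKZF1 (ENSG00000185811.18, chr7:50304068-50405101, plus strand) encodes Ikaros, a transcription factor of lymphoid cells. It had 134.8, 122.6, 119.7, 122.0 and 119.6 CPM in EFNB2 guide libraries A to E and 126.0, 141.9, 137.8, 138.1 and 140.2 CPM in control libraries A to E. The B to E libraries of the guides were well separated, and EFNB2 guide library A lay above control library A. IKZF1 fell by 9.52% (log2 fold change -0.14, SE 0.038, adjusted p = 0.00576 by edgeR), the largest fall of the 9 genes, and it passed in each of the 20 alternative analyses. Without both A libraries IKZF1 fell by 13.3% (log2 fold change -0.21, SE 0.020, adjusted p = 1.33e-08).

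IKZF3 (ENSG00000161405.16, chr17:39757715-39864188, minus strand) encodes Aiolos, the Ikaros relative of B and plasma cells, and had the highest level of the 9 genes. Its libraries A to E held 663, 681, 681, 684 and 688 CPM with the EFNB2 guide and 627, 673, 664, 684 and 661 CPM with the control guide. Library A was the lowest of its group with either guide, and the groups overlapped. IKZF3 did not pass (log2 fold change 0.037, SE 0.025, adjusted p = 0.251 by edgeR), with 2 SE on either side spanning -0.923% to 6.29%, and it passed in none of the 20 alternative analyses (adjusted p from 0.0695 to 0.746). The log2 fold change of IKZF3 without both A libraries was 0.027 (adjusted p = 0.222).

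Counts of IKZF3 per count of IKZF1 were 5.50 ± 0.335 with the EFNB2 guide and 4.84 ± 0.120 with the control guide (SD, n = 5 each). The ratio lay at 4.92 in EFNB2 guide library A and at 5.56 to 5.75 in the other 4 libraries of that guide, against 4.71 to 4.98 in the control libraries. Counts of CUL4A per count of CUL4B were 0.691 ± 0.0114 with the EFNB2 guide and 0.723 ± 0.0282 with the control guide, where control library A stood at 0.674 and the other 4 at 0.727 to 0.745. The ratio of CRBN to DDB1 counts was 0.1001 ± 0.00279 with the EFNB2 guide and 0.0993 ± 0.00317 with the control guide, so receptor and adaptor kept their proportion within the spread between libraries. These ratios need no scaling between libraries and are given as descriptions, without a test.

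**Figure D3:**
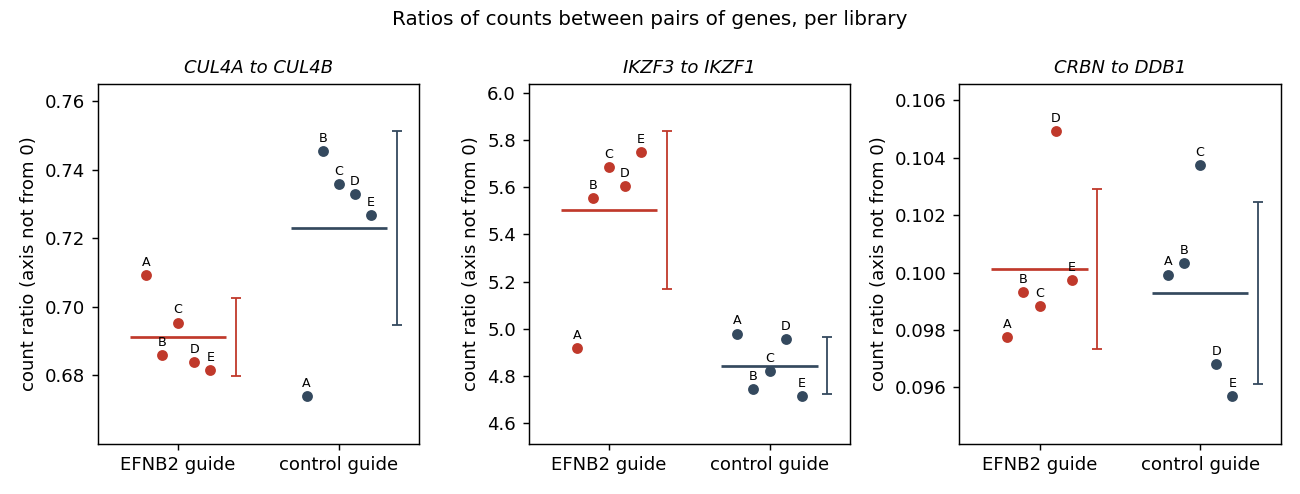
Each panel gives the ratio of counts of 2 genes in every library (vertical axis not drawn from 0), with the EFNB2 guide on the left and the control guide on the right; lines are means and error bars are 1 SD (n = 5). The IKZF3 to IKZF1 ratio lies at 5.56 or above in EFNB2 guide libraries B to E and at or below 4.98 in all controls, with EFNB2 guide library A among the controls.

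ZFP91 (ENSG00000186660.14, chr11:58579111-58621042, plus strand), a zinc finger protein with ubiquitin ligase activity described in NF-kB signalling, was the 1 gene that rose. It had 79.0, 73.5, 77.0, 76.4 and 77.6 CPM in EFNB2 guide libraries A to E and 70.3, 71.0, 68.3, 69.7 and 70.6 CPM in control libraries A to E. All 5 libraries of the EFNB2 guide lay above all 5 controls, a separation seen in either direction in 30.3% of all tested genes. ZFP91 rose by 9.60% (log2 fold change 0.13, SE 0.026, adjusted p = 0.000626 by edgeR), and it passed in each of the 20 alternative analyses. ZFP91 rose by 8.88% without both A libraries (adjusted p = 0.000209). The readthrough gene ZFP91-CNTF, whose exons cover 32.3% of the exon bases of ZFP91, was listed at 0 counts in all libraries, so how reads shared by both were assigned is uncertain.

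CSNK1A1 (ENSG00000113712.17, chr5:149492197-149551552, minus strand) encodes casein kinase 1 alpha, the lenalidomide target known from myelodysplasia with loss of the long arm of that chromosome. It had 160.7, 154.3, 148.0, 155.6 and 151.5 CPM in EFNB2 guide libraries A to E and 157.6, 164.0, 165.9, 164.6 and 161.3 CPM in control libraries A to E. Again only the A libraries overlapped. CSNK1A1 fell by 5.33% (log2 fold change -0.079, SE 0.026, adjusted p = 0.0216 by edgeR). The call was lost without EFNB2 guide library B, C or E or control library B, C or D (adjusted p from 0.0544 to 0.0851), whereas without both A libraries CSNK1A1 fell by 7.11% (adjusted p = 0.000139). The overlapping gene model AC021078.1 on the same strand shares 34.0% of the 100-base stretches of CSNK1A1 transcripts and held 3.82% as many counts, so the count of CSNK1A1 is uncertain to the extent that reads were split between them.

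With both A libraries left out, all of the 9 genes but CUL4B and IKZF3 passed, and the same 7 had groups that did not overlap, where 55.2% of all tested genes passed and 49.2% had groups apart. EFNB2 guide library A was the library of its guide nearest to the control mean in 6 of the 9 genes, and control library A was the nearest to the EFNB2 guide mean in 6 of 9. The share of all genes was not counted, so this is not read as a trait of the 9 genes. On the first principal component (61.7% of the variance) EFNB2 guide library A lay at -26.4 and the others of its guide at -35.9 to -34.6. Control library A lay there at 28.2 and the other controls at 33.6 to 35.3.

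Per kilobase of merged exons, the order of levels was IKZF3, DDB1, CSNK1A1, CUL4B, ZFP91, RBX1, IKZF1, CUL4A and CRBN with either guide. Aiolos mRNA stood at 67.9 ± 0.938 CPM per kilobase with the EFNB2 guide and 66.2 ± 2.14 with the control guide, and Ikaros mRNA at 11.3 ± 0.580 with the EFNB2 guide and 12.5 ± 0.573 with the control guide (SD, n = 5 each). CUL4B stood at 15.7 ± 0.144 CPM per kilobase with the EFNB2 guide and 15.6 ± 0.181 with the control guide, above CUL4A at 9.73 ± 0.189 with the EFNB2 guide and 10.1 ± 0.343 with the control guide. Neighbours in this order differed by more than the sum of their SDs, except RBX1 and IKZF1 in control cells, at 12.6 ± 0.341 and 12.5 ± 0.573. Merged exons count every annotated variant, so the level per kilobase of a gene with long rare exons is understated. The SDs between libraries do not measure that error, so the order is uncertain to that extent.

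CRBN, DDB1 and CUL4A each overlap a well-expressed gene on the opposite strand. The exons of TRNT1 cover 7.37% of the exon bases of CRBN, those of TKFC 3.73% of DDB1, and those of PCID2 5.55% of CUL4A. PCID2 rose (log2 fold change 0.14, adjusted p = 0.00645 by edgeR), while TRNT1 (0.043, adjusted p = 0.397) and TKFC (-0.053, adjusted p = 0.167) did not pass. The library kit keeps strand, but the strand setting of the counting is not given in the sources used here.

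To see whether a gene moved with its chromosome region, each was set beside the 10 nearest tested genes on either side. For CRBN, which lies near the end of chromosome 3 and has 14 such neighbours, their median log2 fold change was -0.076, beside its own -0.095. The SD of that median between libraries of 1 guide was up to 0.088, and 2 of the 14 rose and 5 fell. Whether CRBN moved with its region was not tested. For the other 8 genes the neighbours' medians ran from -0.063 to 0.092, with SDs of up to 0.017 (IKZF3) to 0.067 (IKZF1). DDB1 (-0.11) stood beside a neighbour median of 0.043 with 2 of 20 neighbours below it, and ZFP91 (0.13) beside 0.018 with 15 of 20 below it. CUL4A (-0.047) stood beside 0.092, where 7 of 20 neighbours rose and 4 fell. IKZF1 (-0.14) stood beside -0.035 with 5 of 20 below it, where 6 of 20 rose and 6 fell. Beside IKZF3 and beside CSNK1A1 5 of 20 rose and 7 fell. Of all tested genes 22.8% rose and 22.6% fell.

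**Figure D4:**
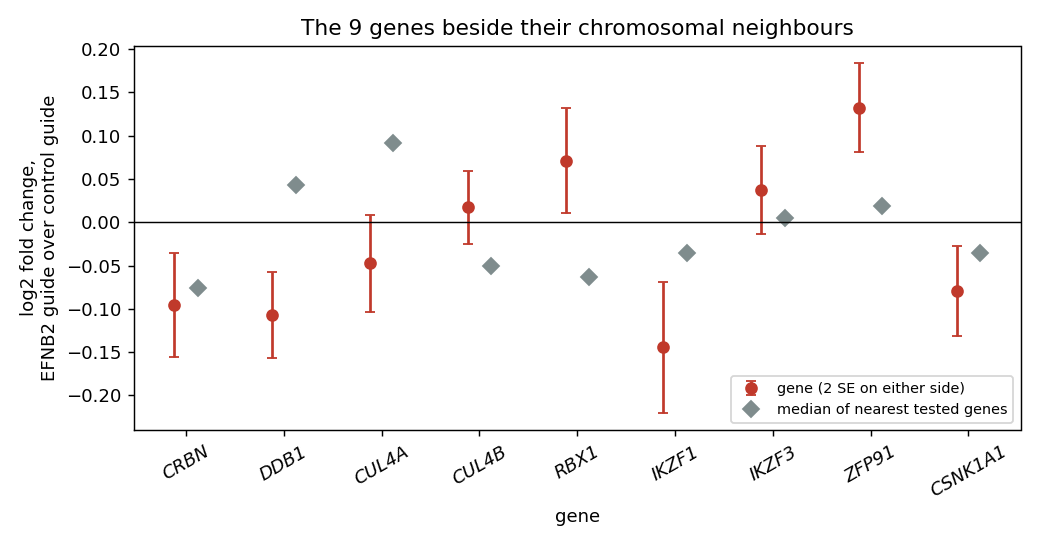
Log2 fold change of the EFNB2 guide over the control guide on the vertical axis, with each of the 9 genes as a circle (bars span 2 SE on either side) and the median of its nearest tested genes as a diamond. CRBN at -0.095 lies next to its neighbours' -0.076, while DDB1 and CUL4A lie below positive neighbour medians of 0.043 and 0.092.

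Among E2 enzymes that can serve cullin ligases, 6 of 8 tested genes fell and none rose, with a median log2 fold change of -0.091 beside 0.0073 for all tested genes. Among all tested genes 22.6% fell and 22.8% rose, and of the 6161 well-expressed genes (mean log2 CPM 5 or more) 59.3% passed in either direction. UBE2G1, the E2 that extends ubiquitin chains on drug-recruited cereblon substrates, changed most. It stood at 72.6 ± 3.26 CPM in EFNB2 guide cells, against 91.4 ± 1.44 CPM in control cells (SD, n = 5 each), with no overlap (log2 fold change -0.33, SE 0.030, adjusted p = 3.75e-07 by edgeR). UBE2D3, the E2 that places the first ubiquitin in the same reaction, stood at 319 ± 11.6 CPM in EFNB2 guide cells, against 349.9 ± 10.6 CPM in control cells (log2 fold change -0.13, adjusted p = 0.00180), and UBE2D1 fell alongside (-0.13, adjusted p = 0.0104). The count of lower E2 genes was 3 of 8 without EFNB2 guide library E or control library C. Without both A libraries it was 6, with 1 gene higher, where 55.2% of all tested genes passed in either direction.

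Cullins work only after NEDD8 is attached to them, and the COP9 signalosome removes it. Of 14 NEDD8 pathway genes 2 rose and 1 fell, around a median log2 fold change of -0.014. In either direction 45.4% of all tested genes and 59.3% of the well-expressed genes passed. The number that fell was 3 without control library A and without both A libraries, and 4 on the deposited normalized values with a pseudocount of 1. Without both A libraries 55.2% of all tested genes passed in either direction. The NEDD8 protease gene SENP8 (log2 fold change 0.44, adjusted p = 0.00983) and DCUN1D2 (0.16, adjusted p = 0.0323) rose, and DCUN1D1, a cofactor of NEDD8 attachment, fell (-0.19, adjusted p = 0.000176). SENP8 was weakly expressed, with means of 2.51 CPM in EFNB2 guide cells and 1.85 CPM in control cells, and its groups overlapped. The DCUN1D2 call was lost without EFNB2 guide library B, D or E or control library B, C or D (adjusted p from 0.0563 to 0.0837). Of 10 signalosome genes 2 rose and 4 fell, around a median of 0.0052, again beside 45.4% of all tested and 59.3% of well-expressed genes passing. COPS2 (0.23, adjusted p = 1.00e-05) and COPS3 (0.12, adjusted p = 0.00331) rose, and COPS4 (-0.13, adjusted p = 0.0141), COPS6 (-0.086, adjusted p = 0.0128) and COPS8 (-0.080, adjusted p = 0.0252) fell. The number of lower signalosome genes was 1 without EFNB2 guide library B and 2 without EFNB2 guide library C or control library C or D. The COPS8 call was lost without EFNB2 guide library A, B or C or control library C or D (adjusted p from 0.0557 to 0.0796), and that of COPS4 without EFNB2 guide library B (0.0544).

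Of 23 genes for other substrate receptors and small subunits of cullin 4 ligases, 4 were higher and 6 lower, with a median log2 fold change of -0.011. Of all tested genes 45.4% passed in either direction, and of the well-expressed genes, to which most of these belong, 59.3% passed. DTL, the receptor that acts in S phase (0.19, adjusted p = 0.00162), DCAF15, the receptor that aryl sulfonamide drugs bind (0.18, adjusted p = 0.000464), and DDA1, a small subunit on DDB1 (0.17, adjusted p = 0.000132), were higher. DCAF17 (-0.34, adjusted p = 5.46e-06), WDTC1 (-0.21, adjusted p = 1.49e-05) and DCAF7 (-0.17, adjusted p = 0.00116) were lower. Without both A libraries 5 were higher and 9 lower, where 55.2% of all tested genes passed in either direction. Of the 6 other cullin genes 1, CUL1, was lower (-0.060, adjusted p = 0.0491), and the call was lost in each of the 8 fits that left out a B, C, D or E library of either guide (adjusted p from 0.0613 to 0.161). Without both A libraries 3 of these cullin genes were lower and 1 higher, again beside 55.2% of all tested genes.

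Of 20 genes for other proteins reported to be degraded through cereblon, 19 were tested, 7 rose and 5 fell (median log2 fold change 0.0018). Of all tested genes 22.8% rose and 22.6% fell. The 7 include ZBTB16 and SALL4, which were tested only because of their level in EFNB2 guide cells, so the 7 is not read against that share. Where genes had to reach 1 CPM in 5 libraries, 5 rose and 5 fell, beside 3634 higher and 3751 lower of 13733 tested genes. TP63 reached 1 CPM only in EFNB2 guide libraries, so the 5 that rose are not read against those numbers either. The largest rises were in genes that control cells hardly expressed, named here after their values were seen. ZBTB16, the gene of the thalidomide target PLZF, ranged from 0.779 to 1.02 CPM with the EFNB2 guide. With the control guide ZBTB16 ranged from 0.0194 to 0.0896 CPM. The ratio of its summed counts per library total was 13.5 (226 counts against 18). SALL4, the thalidomide target linked to limb defects, ranged from 0.415 to 0.648 CPM with the EFNB2 guide. With the control guide SALL4 ranged from 0.0547 to 0.184 CPM (ratio 4.80). TP63, a thalidomide target of the p53 family, ranged from 1.505 to 2.08 CPM with the EFNB2 guide. With the control guide TP63 ranged from 0.474 to 0.967 CPM (ratio 2.67). ZBTB16 and SALL4 lay below the filter on low counts in every control library and were tested only because of their level in EFNB2 guide cells. No p-value, interval or overlap is therefore given for them, and the ratios are descriptions. TP63 rose with an edgeR adjusted p of 9.96e-06.

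Among the better expressed targets, DTWD1 (log2 fold change 0.29, adjusted p = 0.000185), E4F1 (0.17, adjusted p = 0.00719) and ZNF653 (0.14, adjusted p = 0.0288) rose. The ZNF653 call was lost without EFNB2 guide library D or E or control library B, D or E (adjusted p from 0.0544 to 0.0815). ZNF827 (-0.31, adjusted p = 9.86e-06), PDE6D, which encodes a carrier of prenylated proteins (-0.25, adjusted p = 5.67e-05), and the small GTPase gene RAB28 (-0.19, adjusted p = 0.00151) fell. The number of lower genes was 8 without both A libraries, where 55.2% of all tested genes passed in either direction. GSPT1, the translation termination factor that other cereblon ligands destroy, stood at 282 ± 8.01 CPM in EFNB2 guide cells, against 289.6 ± 5.98 CPM in control cells and did not pass (-0.041, adjusted p = 0.206).

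**Figure D5:**
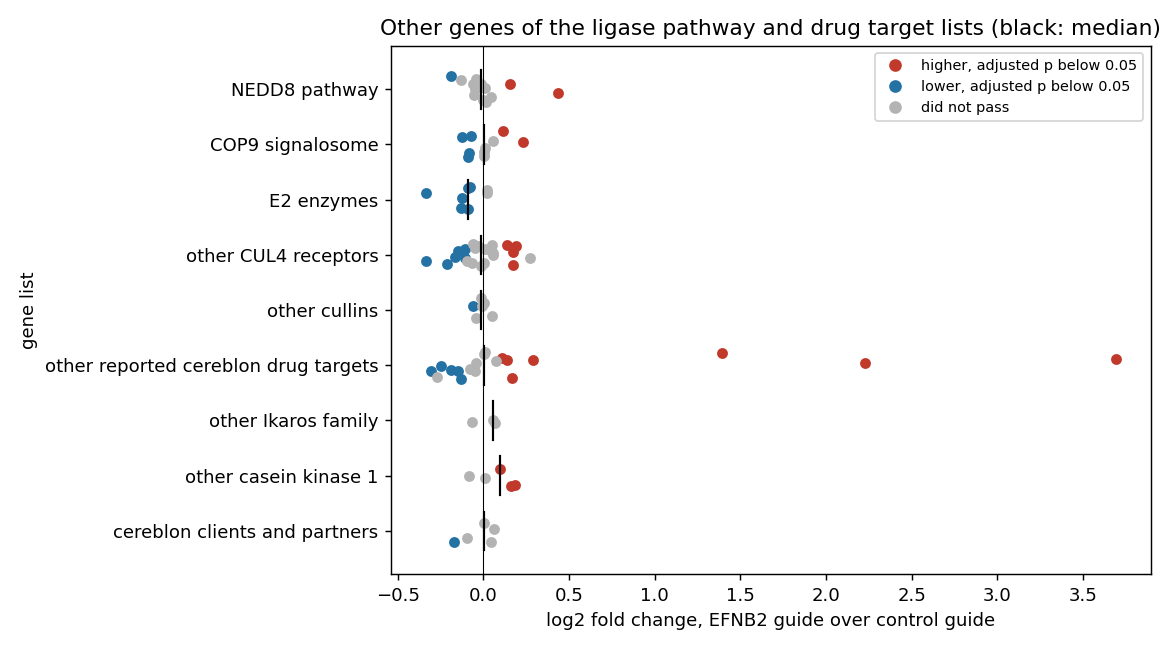
Log2 fold change of the EFNB2 guide over the control guide for the tested genes of 9 lists, 1 point per gene, coloured by whether it passed an adjusted p of 0.05 as higher or lower; black bars are list medians and vertical jitter has no meaning. The E2 enzymes lie mostly to the left (median -0.091), and the 3 points furthest right, TP63, SALL4 and ZBTB16, are weakly expressed genes. SALL4 and ZBTB16 were tested only because of their level in EFNB2 guide cells, so their colour is not read as a result.

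The relatives of the drug targets were measured as well. None of IKZF2, IKZF4 and IKZF5 passed (adjusted p from 0.279 to 0.449 by edgeR; 0 genes had an unadjusted p below 0.05, and 0 passed by DESeq2 or limma-voom), and their median log2 fold change was 0.057; without control library A, 1 of them passed as lower. Of 5 tested casein kinase 1 genes other than CSNK1A1, the 3 gamma genes rose, CSNK1G1 by 0.19 (adjusted p = 0.000147), CSNK1G3 by 0.16 (adjusted p = 0.00116) and CSNK1G2 by 0.10 (adjusted p = 0.00103) on the log2 scale, and none fell, beside 22.8% of all tested genes that rose and 59.3% of the well-expressed genes that passed in either direction. Without control library D, and on the deposited normalized values, 1 of the 5 passed as lower. Of 5 tested genes for clients and partners of cereblon without drug, 1, the lactate transporter gene SLC16A1, fell (-0.17, adjusted p = 1.68e-05), while its chaperone gene BSG (0.064, adjusted p = 0.286), the glutamine synthetase gene GLUL (-0.094, adjusted p = 0.0502) and MEIS2 (0.045, adjusted p = 0.486) did not pass. The number that fell was 2 without EFNB2 guide library A, without control library A, without both A libraries, with limma-voom and on the deposited normalized values. Of all tested genes 55.2% passed in either direction without both A libraries.

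IRF4 and MYC, which many myeloma cells depend on and which fall after Ikaros and Aiolos are destroyed by drug, did different things here. Whether these U266 cells depend on either gene was not measured. In mean level IRF4 lay above 99.1% of the tested genes and MYC above 48.6%. IRF4 stood at 667 ± 47.2 CPM in EFNB2 guide cells, against 648 ± 14.2 CPM in control cells and did not pass (0.043, adjusted p = 0.414), though it passed as higher without EFNB2 guide library A (0.091, adjusted p = 0.00349) and without both A libraries (0.077, adjusted p = 0.00114). MYC stood at 7.22 ± 1.06 CPM in EFNB2 guide cells, against 16.2 ± 0.808 CPM in control cells and fell (-1.16, adjusted p = 1.08e-08), with no overlap.

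The genes whose log2 CPM followed CRBN, IKZF1 or IKZF3 most closely over the 10 libraries were named by Pearson's r, as a description over libraries that fall into the 2 guides. For CRBN these were TIMMDC1, a mitochondrial complex assembly gene (r = 0.975), the respiratory chain gene UQCRB (r = 0.972) and the nucleolar gene NPM1 (r = 0.968). For IKZF1 they were EHD3 (r = 0.986), AP2B1, a clathrin adaptor gene (r = 0.985), and the nuclear import gene IPO8 (r = 0.984), and EHD3 also had each A library displaced toward the other guide. For IKZF3 they were the splicing factor gene MBNL1 (r = 0.974), RSBN1 (r = 0.966) and SFMBT2 (r = 0.949).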

How the data were processed

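The labels' titles put 10 U266 libraries in 2 groups of 5. The main input is the table of raw gene counts that the authors deposited, in whole numbers. A second table deposited by the authors holds a normalized signal, which equals the raw count plus a small constant, multiplied by 1 factor per library (within 0.000497%). The submitters' processing notes list STAR 2.27a, GRCh38, DESeq2 and Partek, with no role for each. Annotation and strand setting: not given in the sources used here. Left out were 4 rows that name no gene (at most 0.000401% of counts).

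Genes passing filterByExpr were TMM-scaled and tested with edgeR 4.0.16 (R 4.3.3; glmQLFit, glmQLFTest), with guide as the only term. SE is the absolute log2 fold change over the square root of F. CPM use TMM-scaled totals, and log2 CPM a prior count of 2. Positions, exon lengths, overlaps and coding bases came from GENCODE 29, and neighbours from RefSeq (GRCh38.p14) positions, matched by symbol for 14312 of 17833 tested genes. Pairs of libraries of 1 guide differed by more than sampling noise. The test was checked on simulated data. Lists were counted, not tested. Named genes were all members, EFNB2, IRF4, MYC, up to 3 rises and 3 falls per list with mean log2 CPM 1 or more, and 3 most similar genes for CRBN, IKZF1 and IKZF3; others were named after their values were seen. Members and lists were chosen with earlier results of these data known. Alternatives, 20 in all, were RLE scaling, library totals, no filter, at least 1 CPM in 5 libraries, DESeq2 1.42.0, limma-voom (limma 3.58.1), a replicate block (the library letter), limma-trend on the normalized values with pseudocounts of 1 and 0.1, and leaving out each library or both A libraries.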

Additional observations from a re-analysis of the deposited data

Results flagged for a closer look

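In 104 groups of 5 libraries, made of the genes and ratios named above, 17 had 1 library whose gap to the nearest of the others exceeded 0.71 of the group's range, where chance gives about 1 in 20 independent groups. These groups are not independent, since AP2B1, EHD3 and IPO8 were chosen for following IKZF1 and 1 ratio is made from it, so the number is not read against chance. Of the 9 genes this was so for IKZF1, at 134.8 CPM in EFNB2 guide library A (the other 4 libraries 119.6 to 122.6) and at 126.0 CPM in control library A (137.8 to 141.9). The A libraries also stood apart in the IKZF3 to IKZF1 count ratio, at 4.92 in EFNB2 guide library A, and in the CUL4A to CUL4B count ratio, at 0.674 in control library A. The CRBN to DDB1 count ratio stood at 0.105 in EFNB2 guide library D.

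Among the other genes, EFNB2 guide library A stood apart in IRF4 (583.5 CPM, others 678.7 to 693.5), MYC (9.09 CPM, others 6.54 to 6.86), AP2B1 (387 CPM), DCAF7 (190.4 CPM) and EHD3 (73.0 CPM, others 52.6 to 55.9). Control library A stood apart in AP2B1 (377 CPM), DCAF7 (185 CPM, others 208 to 212), EHD3 (63.4 CPM, others 84.9 to 86.6), COPS2 (96.3 CPM) and RAB28 (19.4 CPM). EFNB2 guide library B stood apart in DCAF17 (49.7 CPM) and EFNB2 guide library D in SLC16A1 (115.0 CPM).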

How the results depend on the processing

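DDB1, IKZF1 and ZFP91 passed in all 20 alternatives and CUL4B and IKZF3 in none. The number of the 9 genes that rose was 2 with library totals alone, with at least 1 CPM in 5 libraries and without both A libraries, through RBX1 (log2 fold change 0.087, 0.077 and 0.076), and 1 to 2 when 1 library was left out (RBX1 0.058 to 0.088). The number that fell was 2 with the replicate block, where CRBN (-0.095, adjusted p = 0.0642) and CSNK1A1 (-0.079, adjusted p = 0.0767) did not pass by edgeR, and 2 to 5 when 1 library was left out (CRBN -0.11 to -0.078, CSNK1A1 -0.094 to -0.060, CUL4A -0.071 to -0.030). CUL4A passed as lower on the deposited normalized values with a pseudocount of 1 (-0.072) and without both A libraries (-0.078). CUL4B, never called, turned to -0.0086 on those values with a pseudocount of 1 and to -0.0087 with 0.1. The causes were not tested. Libraries of the same letter showed no positive shared deviation (correlations -0.237 to -0.00305). The A libraries had the correlation of -0.237 and deviated in opposite directions, so these values cannot decide whether the letters pair the guides. With the block, 3 E2 genes were lower. With library totals alone 7 genes of the list of other receptors and small subunits were higher. EFNB2 was not tested with at least 1 CPM in 5 libraries. With an SE near 0.03, changes of a few percent in the 9 genes were at the limit of detection. The SE leaves out the choice of scaling, which moved all 9 together. Each log2 fold change was higher with library totals alone than in the main fit, and lower on the deposited normalized values. With a pseudocount of 1 for those values, CRBN stood at -0.079 and -0.12 in these 2 settings, and CUL4B at 0.033 and -0.0086.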

Other observations

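The coding pattern of a finger with a glycine after the second cysteine, as in IKZF1, IKZF3 and ZFP91, was found in 652 of 19834 coding genes (3.29%). The pattern was counted after values had been seen. Of the 538 such genes tested, 113 rose and 98 fell with the EFNB2 guide, with a median log2 fold change of 0.0080, beside 22.8% higher and 22.6% lower among all tested genes.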
